A study of Arabidopsis thaliana with 9 samples.

Results

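The genes that surround MYB30 on chromosome 3 of Arabidopsis thaliana were described in a myb30 mutant and in MYB30-OE, an overexpressor. The neighbourhood was taken by position, as genes of the deposited TAIR10 annotation whose first exon base lies from 10400000 to 11900000. The annotation places 342 genes there. MYB30 itself and the genes AT3G28857, AT3G29030, AT3G29590 and AT3G30180 were left out, which leaves 337. Of these, 198 have a row in the authors' deposited tables, out of 33977 genes in each table, and 139 have none, of which 107 are transposable element genes. The 198 neighbours hold 194 protein coding genes, 3 tRNA genes and 1 long non-coding RNA.

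RNA was sequenced from whole seedlings of Col (the wild type of the Columbia ecotype), myb30 and MYB30-OE, with 3 libraries per genotype. All seedlings were 4 days old and had been kept on MS plates in continuous white light, and the Col ecotype is given for all of them. The labels give neither the mutant allele nor the promoter that drives MYB30 in MYB30-OE. They also do not give the insertion site of the MYB30-OE construct, or whether either line is 1 clone. The authors' deposited tables hold a log2 fold change, a mean level and a p-value for each pair of genotypes and no value per library, so no spread between replicates can be given, and the p-values measure the spread between libraries that the labels do not tie to separate cultures. Every log2 fold change below is that of the authors' deposited table for the pair named. Levels per genotype in CPM (read counts scaled to a common library size) were worked back from the same columns and are approximate. A gene is called changed where its p-value, Benjamini-Hochberg adjusted over all genes with at least 1 read, is under 0.05.

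MYB30 encodes a transcription factor of the R2R3-MYB class, known for promoting the hypersensitive cell death response to bacteria and the brassinosteroid response. Genes that lie close together on a chromosome are inherited together, so a line keeps the stretch of chromosome that surrounds its mutation. An inserted T-DNA can also alter transcription of the genes next to it, because strong enhancers in some constructs act on neighbouring promoters. The genes around a mutation or an insert are therefore a usual check in work with single mutant or overexpressing lines. For MYB30-OE the insertion site is not given, so whether the genes described here lie near its insert is not known.

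The neighbourhood holds clusters of related genes as well as single genes with known roles. The 250 bases before the annotated start are printed for 5 of them, read from the TAIR10.1 sequence and written 5′ to 3′ on the gene's strand. They are the called gene nearest to MYB30, the nearest neighbour on its higher side and the AT14A copies. The 250 bases are identical in both copies, and 1 stretch is printed for both. Also printed are a gene that rose in MYB30-OE and holds one of the motifs searched, and AT3G29970. Among neighbours at a mean of 1 CPM or more, AT3G29970 had the widest difference between the lines. Capitals mark matches to the motifs searched on both strands, ACCTACC and ACCAACC (forms of the AC element bound by R2R3-MYB proteins), AACAAAC and TATAAA.
AT3G28900 (minus strand, chr3:10904459-10904708): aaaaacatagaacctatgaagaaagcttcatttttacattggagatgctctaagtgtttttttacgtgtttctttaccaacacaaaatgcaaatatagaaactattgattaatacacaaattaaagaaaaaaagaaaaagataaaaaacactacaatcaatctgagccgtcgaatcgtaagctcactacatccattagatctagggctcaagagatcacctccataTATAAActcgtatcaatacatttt
AT3G28917, MIF2 (plus strand, chr3:10924567-10924816): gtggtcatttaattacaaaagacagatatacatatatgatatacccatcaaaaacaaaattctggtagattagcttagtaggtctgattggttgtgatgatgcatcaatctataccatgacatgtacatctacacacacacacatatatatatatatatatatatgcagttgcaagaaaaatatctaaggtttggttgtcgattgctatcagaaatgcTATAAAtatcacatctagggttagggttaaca
AT3G28290, AT14A (plus strand, chr3:10547254-10547503): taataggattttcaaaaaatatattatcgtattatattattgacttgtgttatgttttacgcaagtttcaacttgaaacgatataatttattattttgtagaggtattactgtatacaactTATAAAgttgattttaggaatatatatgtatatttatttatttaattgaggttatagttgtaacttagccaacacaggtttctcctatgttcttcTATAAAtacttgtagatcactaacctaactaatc
AT3G28340, GATL10 (minus strand, chr3:10590553-10590802): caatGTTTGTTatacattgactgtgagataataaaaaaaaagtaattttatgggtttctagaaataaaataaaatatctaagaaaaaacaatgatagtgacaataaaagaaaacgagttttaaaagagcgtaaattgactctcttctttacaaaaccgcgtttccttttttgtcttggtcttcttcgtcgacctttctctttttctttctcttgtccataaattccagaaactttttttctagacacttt
AT3G29970 (plus strand, chr3:11744961-11745210): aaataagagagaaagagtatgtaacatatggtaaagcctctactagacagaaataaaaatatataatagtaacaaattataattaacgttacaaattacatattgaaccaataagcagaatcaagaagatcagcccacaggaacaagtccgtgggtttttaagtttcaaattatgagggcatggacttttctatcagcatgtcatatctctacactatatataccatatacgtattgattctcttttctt

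These stretches carry TATAAA 24 bases before the start of AT3G28900 and 32 bases before that of MIF2. AACAAAC lies 246 bases before the start of GATL10, on the other strand. Over all 198 neighbours AACAAAC was present in 8.08% of the 250-base stretches, against 11.2% of 27996 genes. It was present in 2 of the 20 neighbours called in myb30 and in 1 of the 13 called in MYB30-OE. ACCTACC was present in 1.52% of neighbours and 1.18% of all genes, and ACCAACC in 2.02% and 2.99%. TATAAA was present in 50% and 47.9%. No stretch of a gene called in either line against Col held ACCTACC or ACCAACC.

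MYB30, from which the sign of the fold changes was read, spans chromosome 3 from 10911157 to 10913190 on the plus strand, in 3 exons. From the authors' deposited tables, its level came to 32.2 CPM in Col, 617 CPM in the overexpressor and 4.55 CPM in the mutant. In MYB30-OE its log2 fold change was 4.28. The tables imply a mean depth of 33136607 to 35210921 reads per library. Markers of other tissue also moved. The 5 photosynthesis markers summed to 35741 CPM in Col and 21841 CPM in myb30, where all 5 fell, and to 35020 and 41266 CPM in Col and MYB30-OE, where 4 rose. Seed storage transcripts summed to 15.8 CPM in Col and 654 CPM in myb30, and to 15.3 and 136 CPM in Col and MYB30-OE, with 10 of 10 risen in each. Root markers summed to 110 and 198 CPM in Col and myb30 and to 107 and 147 CPM in Col and MYB30-OE, with 4 and 3 of 6 risen. No marker was at 0, fewer cells of a type and less RNA per cell cannot be told apart in whole seedlings, and the part of these shifts in the values of the neighbours was not tested.

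In myb30, 20 of the 149 neighbours with reads were called, 10 higher and 10 lower, or 13.4%. The background share over all genes with reads was 21.5%, and 22.7% over the other genes of chromosome 3. The rises included a B12D protein gene, COBL2 and AT3G28220, and the falls included AT3G29240, UMAMIT47 and MES11. Of the 20, 5 changed by 2-fold or more (3.36%, background 5.17%). By direction, the background was 10.8% higher and 10.7% lower. In MYB30-OE, 13 of 144 neighbours with reads were called, 4 higher and 9 lower, or 9.03%. The background was 11.5% over all genes (5.99% higher and 5.49% lower) and 12.2% over the rest of the chromosome. The rises were led by SDR4 and the falls by AT3G29970 and both AT14A copies, and AT3G29970 alone changed by 2-fold or more (0.694%, background 2.61%). Neither share of neighbours stood above the share in all genes.

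The neighbourhood is sparsely transcribed in these seedlings, and genes with few reads were called less often: of all genes under 1 CPM, 8.12% were called in myb30 and 4.47% in MYB30-OE. At a mean of at least 1 CPM stood 42.4% of the neighbours, 67.1% of the other genes of chromosome 3 and 54.9% of all genes. Among genes at that level or above, 16 of 84 neighbours (19.0%) were called in myb30, beside 26.6% of all genes. In MYB30-OE the same count was 13 of 86 (15.1%), beside 14.1%. Level classes were compared under 1 CPM, at 1 to 10, at 10 to 50 and at 50 CPM or more. In myb30 these classes held 65, 32, 36 and 16 neighbours, of which 6.15%, 21.9%, 19.4% and 12.5% were called, beside 8.12%, 21.7%, 25.2% and 37.7% of all genes. In MYB30-OE they held 58, 35, 36 and 15 neighbours, of which 0%, 8.57%, 16.7% and 26.7% were called, beside 4.47%, 10.7%, 12.7% and 22.9% of all genes. The share of neighbours was thus below that of all genes in 3 of 4 classes in myb30 and in 2 of 4 in MYB30-OE.

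Taken over the whole window, the neighbours did not move together in 1 direction. Their median log2 fold change, over those averaging at least 1 CPM, was -0.04 in myb30 and 0.01 in MYB30-OE. The medians of all genes at that level were 0.02 and 0.00. Within 50 kb of MYB30, the median of 5 such neighbours was -0.04 in myb30 and -0.26 in MYB30-OE. Their values in MYB30-OE ran from -0.35 to 0.14. Farther out, the medians in MYB30-OE were -0.04 (50 to 150 kb), -0.03 (150 to 300 kb), 0.05 (300 to 500 kb) and 0.02 (beyond). These medians were not tested against distance.

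**Figure D1:**
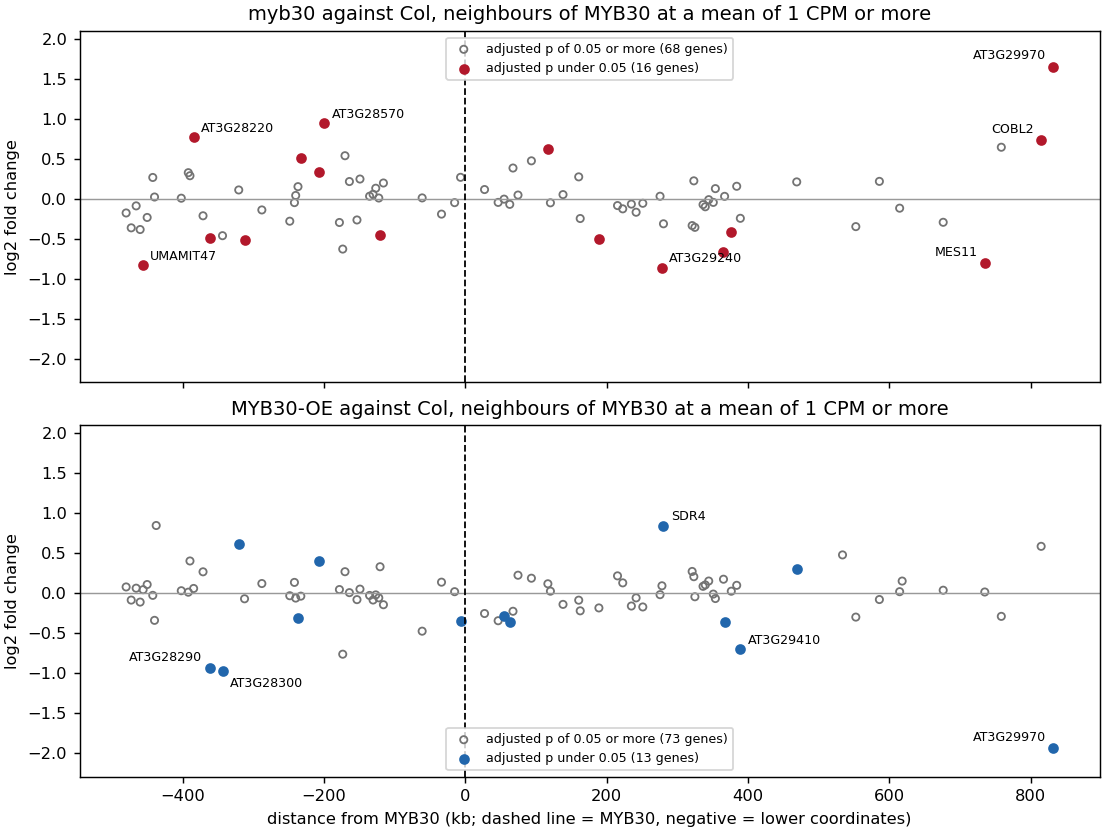
Log2 fold change against Col (vertical axis) of neighbours at a mean of 1 CPM or more, by distance from MYB30 in kb (horizontal axis, negative at lower coordinates), for myb30 above and MYB30-OE below; filled points have an adjusted p under 0.05. Filled points (16 in myb30, 13 in MYB30-OE) lie on both sides of MYB30 and of the zero line.

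Called genes were spread over the window. Within 50 kb of MYB30, 0 of 8 neighbours with reads were called in myb30. The counts farther out were 2 of 28 at 50 to 150 kb, 6 of 43 at 150 to 300 kb, 8 of 50 at 300 to 500 kb and 4 of 20 beyond. In MYB30-OE the same bins gave 1 of 9, 2 of 28, 3 of 42, 6 of 46 and 1 of 19. The lower side of MYB30 held 9 of 75 called in myb30 and the higher side 11 of 74, and in MYB30-OE the sides held 6 of 72 and 7 of 72. These counts were not tested against distance.

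**Figure D2:**
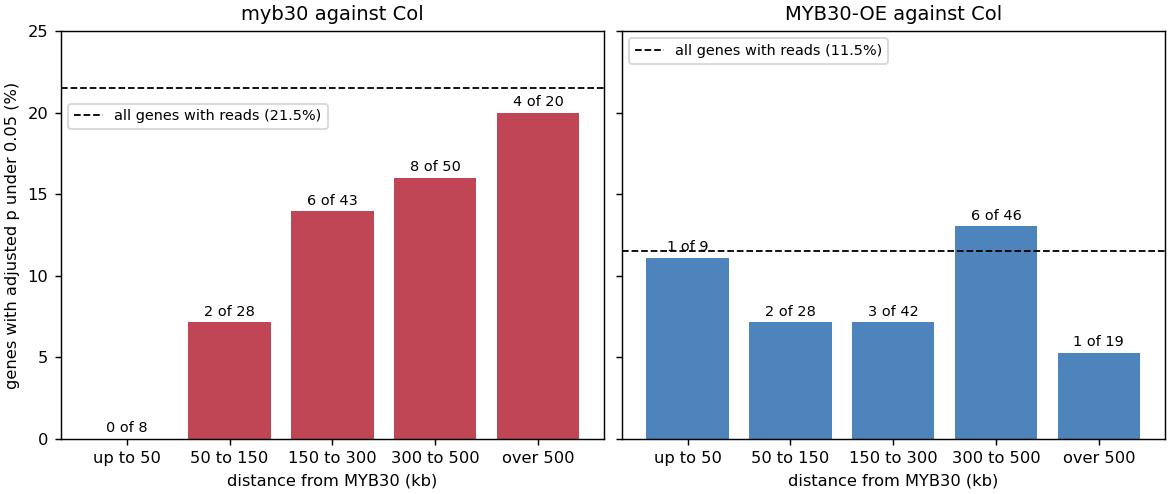
Percent of neighbours with reads that had an adjusted p under 0.05, by distance from MYB30 in kb, for each line against Col; the dashed line is the share over all genes with reads (21.5% and 11.5%). In myb30 the bar within 50 kb stands at 0 (0 of 8 genes) and in MYB30-OE at 1 of 9 genes.

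At the ends of the window, the genes at 1 CPM or more were not called, with 1 exception. At the lower end, UVH3, a DNA repair endonuclease, lies just inside with log2 fold changes of -0.18 in myb30 and 0.08 in MYB30-OE, and AT3G27990 lies just outside with -0.09 and -0.07. At the higher end, AT3G30300 lies just outside with 0.29 and 0.13. AT3G29970, the last gene inside at 1 CPM or more, moved in both lines. It starts at 11745211, well short of the window's end at 11900000.

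The genes next to MYB30 were examined whatever their values, as the 5 nearest with reads on each side. None of the 10 was called in myb30, though AT3G28870 had reads only in MYB30-OE and so was not tested there. The share called in myb30 over all genes with reads was 21.5%. On the lower side the nearest is AT3G28900, a ribosomal protein L34e gene on the minus strand from 10902647 to 10904458, 6.7 kb from MYB30. It stood at 114 CPM in Col and 138 CPM in myb30 (log2 fold change 0.27, adjusted p = 0.0799), and at 112 and 87.7 CPM in Col and MYB30-OE, where it fell by 0.35 on the log2 scale (adjusted p = 0.000729 from the authors' deposited p-values). Its level was thus lowest in MYB30-OE and highest in myb30, and between the lines it differed by a log2 value of -0.62 (adjusted p = 3.3e-08).

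The next genes on that side were little transcribed. RLP43, a receptor-like protein 12.3 kb away, was at 0.0600 CPM in Col and 0.0536 CPM in myb30. AT3G28880, an ankyrin repeat gene that overlaps RLP43 on the opposite strand, was at 1.12 and 1.08 CPM. ABCB19, an auxin efflux transporter 33.7 kb away, was abundant. It stood at 195 CPM in Col and 171 CPM in myb30 (adjusted p = 0.325), and at 191 and 211 CPM in Col and MYB30-OE (adjusted p = 0.295). ABCB19 passed the test only in the comparison of both lines, where it was higher in MYB30-OE by a log2 value of 0.33 (adjusted p = 0.0262).

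On the higher side MIF2, a mini zinc finger gene 11.6 kb from MYB30, was scarce in every genotype, at 0.170 CPM (Col), 0.162 CPM (myb30) and 0.246 CPM (MYB30-OE). AT3G28918 held about 1 read in Col. HB34, a zinc finger homeobox gene 27.3 kb away, was at 24.8 CPM in Col and 26.9 CPM in myb30 (adjusted p = 0.592). In MYB30-OE it was at 20.4 CPM beside 24.3 CPM in Col (adjusted p = 0.111). Farther out lie AIG2 and its relatives AT3G28940 and AT3G28950, described with their family. Among these 10 nearest genes no rise was called in MYB30-OE, and AT3G28900 and AT3G28940 were called lower. Over all genes with reads, 5.99% were called higher and 5.49% lower in MYB30-OE.

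Among genes that rose in myb30, AT3G29970 changed most among those averaging at least 1 CPM. It encodes a B12D protein, a small type of protein first known from barley seeds, and lies on the plus strand from 11745211 to 11746570, 832 kb from MYB30. Its level was 2.16 CPM in Col and 6.81 CPM in myb30 (log2 fold change 1.66, adjusted p = 0.00598). AT3G28220, a TRAF-like gene, rose from 12.3 to 20.9 CPM (0.77, adjusted p = 7e-06). COBL2, a COBRA-like protein of the kind that takes part in cellulose deposition in the seed coat, rose from 2.91 to 4.85 CPM (0.74, adjusted p = 0.024). In MYB30-OE COBL2 was at 4.26 CPM beside 2.84 CPM in Col (0.59, adjusted p = 0.057). It was not called between the lines (log2 value -0.15, adjusted p = 0.73).

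In the authors' deposited table of Col and myb30, the P-loop ATPase gene AT3G28570 rose from 0.784 to 1.52 CPM (0.95, adjusted p = 0.0263). The remaining rises at 1 CPM or more were smaller. AT3G28480, an oxoglutarate and iron dependent oxygenase, rose from 18.3 to 26.1 CPM (0.51, adjusted p = 0.000464). AT3G28550, a proline-rich extensin-like wall protein gene, rose from 169 to 215 CPM (0.34, adjusted p = 0.0403). AT3G29034, of unknown function, rose from 8.20 to 12.7 CPM (0.63, adjusted p = 0.00104).

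The fall in myb30 with the smallest p-value was that of AT3G29240, a gene of the DUF179 family on the plus strand from 11191491 to 11192986. It stood at 222 CPM in Col and 122 CPM in myb30 and fell by 0.86 on the log2 scale (adjusted p = 9.18e-12). In MYB30-OE it was at 231 CPM beside 217 CPM in Col (adjusted p = 0.485). UMAMIT47, of a family of amino acid transporters, fell from 6.41 to 3.61 CPM (-0.83, adjusted p = 0.00175). MES11, of the methyl esterase family that cleaves methylated hormones, fell from 8.97 to 5.12 CPM (-0.81, adjusted p = 0.0011).

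The remaining falls in the authors' deposited table of Col and myb30, at 1 CPM or more, were between -0.42 and -0.66 on the log2 scale. P1R3, which RefSeq lists as uncharacterized, fell from 5.88 to 3.71 CPM (-0.66, adjusted p = 0.0275), and ABCB15, an ABC transporter, from 34.9 to 24.5 CPM (-0.51, adjusted p = 0.00684). AT3G29130, a kxDL motif gene, fell from 10.4 to 7.34 CPM (-0.50, adjusted p = 0.0122). CYP81D11, a cytochrome P450 known to respond to xenobiotic compounds, fell from 27.4 to 20.1 CPM (-0.45, adjusted p = 0.0261), and it overlaps AT3G28730 on the opposite strand. Whether strand was used in counting is not stated, so reads in the overlap may belong to either gene. RIK, a KH domain protein named for its binding to RS2 of maize, fell from 38.3 to 28.7 CPM (-0.42, adjusted p = 0.0425).

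The other called genes in myb30 had few reads. AT3G29630, a UDP-glycosyltransferase gene, fell from 1.26 to 0.407 CPM (-1.63, adjusted p = 3.1e-05). AT3G28540, a P-loop ATPase gene, had about 4 reads in Col and 28 in myb30 (log2 fold change 2.56, adjusted p = 0.00701). The ratio of these rounded reads was 7 (exact 95% interval 2.45 to 27.5, counting error only). AT3G29260, a short-chain dehydrogenase gene on the same side of MYB30 as SDR4, had about 2 and 27 reads (log2 fold change 3.38, adjusted p = 0.00101). The ratio of its rounded reads was 13.5 (exact 95% interval 3.39 to 117). AT3G29385 had 0 reads in Col and about 17 in myb30, at least 5.63-fold higher against a floor of 3 reads per genotype (adjusted p = 0.00393). In MYB30-OE it had no reads either, so its reads were found in myb30 alone of the 3 genotypes.

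In the authors' deposited table of Col and MYB30-OE, SDR4 rose most among called genes. It encodes a short-chain dehydrogenase and reductase and lies on the minus strand from 11193659 to 11194993. It stood at 42.9 CPM in Col and 76.9 CPM in MYB30-OE (log2 fold change 0.84, adjusted p = 2.47e-08), and at 43.8 and 35.3 CPM in Col and myb30 (adjusted p = 0.28). GATL10, a galacturonosyltransferase-like enzyme of the kind that builds wall polysaccharides, rose from 4.14 to 6.34 CPM (0.61, adjusted p = 0.0215). AFP3, a binding partner of the abscisic acid regulator ABI5, rose from 16.8 to 20.7 CPM (0.30, adjusted p = 0.0321).

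AT3G29970 fell in MYB30-OE from 2.13 to 0.552 CPM (-1.94, adjusted p = 0.000637), against its rise in myb30. AT3G29410, of the terpenoid cyclase family, fell from 4.59 to 2.81 CPM (-0.70, adjusted p = 0.0497). AT3G29375, an XH domain gene, fell from 17.5 to 13.6 CPM (-0.37, adjusted p = 0.0435), and AT3G28460, a methyltransferase gene, from 51.3 to 41.1 CPM (-0.32, adjusted p = 0.00193). These falls, AT3G29970 apart, were all under 2-fold.

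**Figure D3:**
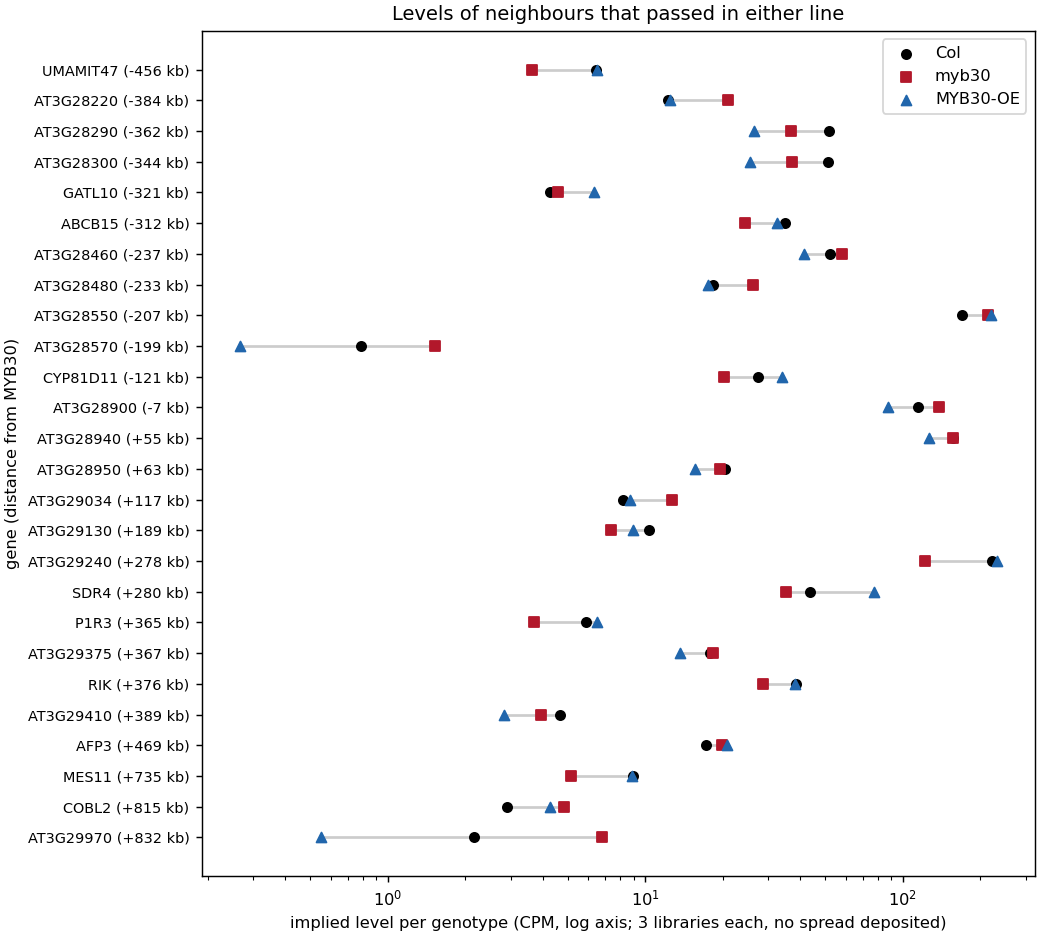
Level in CPM (horizontal log axis) of the neighbours called in either line against Col at a mean of 1 CPM or more, with Col as black circles, myb30 as red squares and MYB30-OE as blue triangles; each row is 1 gene with its distance from MYB30 in kb. No spread is drawn, since the tables used hold no values per library; AT3G29970 has the widest separation, from 0.552 CPM in MYB30-OE to 6.81 CPM in myb30.

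The AT14A copies AT3G28290 and AT3G28300 have to be read as 1 measurement. AT14A is a membrane-associated protein with a region resembling integrins, of the DUF677 family. The exons of both copies are identical over 1575 bases, and so are the 250 bases before the start printed above. The starts lie 18233 bases apart, and each copy lies within its own stretch of 6327 bases that is identical in both, so reads cannot be assigned to either copy. In the authors' deposited table, AT3G28290 stood at 50.5 CPM in Col and 26.3 CPM in MYB30-OE and fell by 0.94 on the log2 scale (adjusted p = 2.84e-26). AT3G28300 stood at 50.3 and 25.5 CPM and fell by 0.98 (adjusted p = 4.74e-24).

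In myb30 the copies were at 36.8 and 37.2 CPM, beside 51.5 and 51.2 CPM in Col. AT3G28290 fell by 0.49 (adjusted p = 0.0242), and AT3G28300 had a log2 fold change of -0.46 that missed the threshold (adjusted p = 0.0564). Both lines were thus below Col for this pair, MYB30-OE more so. Between the lines the pair differed by log2 values of -0.45 (adjusted p = 0.0295) and -0.52 (adjusted p = 0.0177), MYB30-OE lower.

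Families were counted by RefSeq product terms or, for some groups, from lists of genes picked by role. Terms and lists were chosen after values had been seen. Over all genes with reads, 21.5% were called in myb30 and 11.5% in MYB30-OE, and no family was tested against these shares. Of the 6 ABCB transporters with reads, 2 averaged at least 1 CPM. ABCB15 fell in myb30, and 0 of 5 with reads were called in MYB30-OE. The P-loop ATPases held 7 with reads and 2 that rose in myb30, AT3G28540 and AT3G28570, and none called in MYB30-OE. AT3G28570 was at 0.267 CPM in MYB30-OE beside 0.775 CPM in Col (adjusted p = 0.0659). Of 6 UMAMIT transporters, UMAMIT47 alone was called in myb30 and none in MYB30-OE.

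The AIG2-like genes are named for a gene induced in Arabidopsis by a bacterial avirulence protein, and 3 lie side by side. None was called in myb30, where log2 fold changes ran from -0.07 to -0.00306. In MYB30-OE AT3G28940 fell from 154 to 126 CPM (-0.29, adjusted p = 0.0124) and AT3G28950 from 20.0 to 15.6 CPM (-0.36, adjusted p = 0.00449). AIG2 was at 13.1 and 10.3 CPM (-0.35, adjusted p = 0.0641). The 3 values lay between -0.29 and -0.36, of which 2 passed the test. In the comparison of both lines none of the 3 was called, at log2 values from -0.30 to -0.28.

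The other groups held few calls. Of 6 wall and sugar enzymes picked for a list, COBL2 alone was called in myb30 and GATL10 alone in MYB30-OE. The list does not hold the extensin-like wall protein gene AT3G28550, which was called in both lines. Of 6 growth and hormone regulators, AFP3 rose in MYB30-OE and none was called in myb30. Of 4 ribosomal and V-ATPase proteins, AT3G28900 fell in MYB30-OE, and AT3G28710, a subunit of the vacuolar proton pump, was at 149 CPM in Col and 152 CPM in myb30 (adjusted p = 0.913). The HXXXD acyltransferases (4 with reads) and the DUF1216 genes held no call against Col. Per kilobase of exon, the most abundant neighbours in Col were AT3G28940 at 194 CPM per kb, AT3G28900 at 183, AT3G29240 at 163, AT3G28710 at 104 and UGD2, which makes UDP-glucuronic acid, at 66.9.

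**Figure D4:**
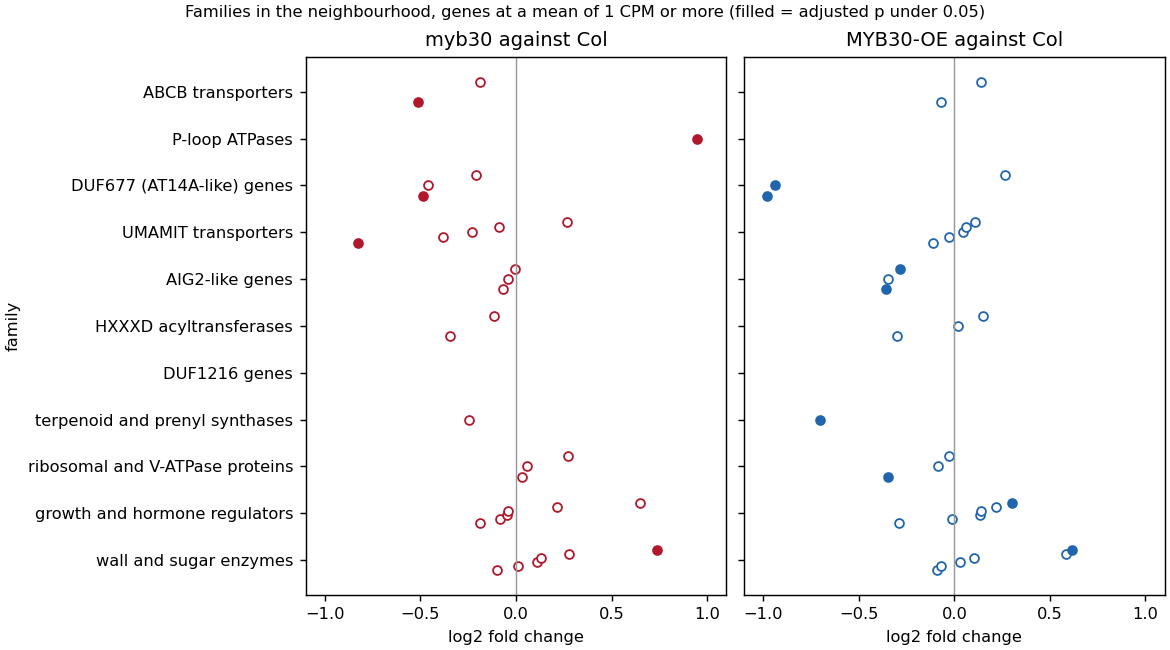
Log2 fold change against Col (horizontal axis) of neighbours at a mean of 1 CPM or more, by family (vertical axis), for myb30 and MYB30-OE; filled points have an adjusted p under 0.05. The 3 AIG2-like genes lie between -0.29 and -0.36 in MYB30-OE and between -0.07 and -0.00306 in myb30.

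The lines were also compared with each other in a table of the authors' own. Of 145 neighbours with reads, 38 differed between MYB30-OE and myb30 (26.2%), 18 higher and 20 lower in MYB30-OE, beside 31.6% of all genes (15.4% higher and 16.2% lower). At 1 CPM or more, 29 of 83 differed (34.9%, background 39.1%), and of all 145 with reads, 12 differed by 2-fold or more (8.28%, background 8.41%). In the authors' deposited table of both lines, AT3G29970 had the widest difference among the named genes at 1 CPM or more, at a log2 value of -3.60 (adjusted p = 5.21e-12). SDR4 was higher in MYB30-OE by 1.16 (adjusted p = 1.55e-10) and AT3G29240 by 0.95 (adjusted p = 2.86e-16). AT3G28600, a P-loop ATPase gene, had about 10 reads in MYB30-OE and 0 in myb30, at least 3.35-fold higher (adjusted p = 0.0102).

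The 3 comparisons share the same libraries, so calls in 1 are not independent of calls in another. Against Col, the genes called in both lines were AT3G28290, AT3G28550 and AT3G29970. AT3G28550 rose in both, from 169 to 215 CPM in myb30 and from 166 to 220 CPM in MYB30-OE (0.40, adjusted p = 0.00251), and its call in myb30 was lost when genes without reads were included in the adjustment. AT3G28290 fell in both, and AT3G29970 moved in opposite directions.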

How the data were processed

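RNA-seq of 9 libraries (3 each of Col, myb30 and MYB30-OE) was read from 3 pairwise tables that the authors deposited, with no value per library. Per the file headers, each table holds a log2 fold change, a mean log2 CPM and a p-value, which the values show to be unadjusted. Per the file headers, the columns carry the names that edgeR's exact test writes in the authors' deposited tables, a tool the processing notes do not name. The submitters' processing notes list TAIR10, TopHat, Cuffdiff and Cufflinks without versions. How reads were counted, and whether strand was kept, is not stated in the labels. Each table name was matched to its genotypes by the descriptions in the labels, and the sign of the fold change was read from MYB30. The table of the 2 lines was turned round, to MYB30-OE over myb30.

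Genes with at least 1 read were told from the floor of mean log2 CPM (tolerance 0.01). The deposited p-values were adjusted over these genes by Benjamini-Hochberg (numpy 2.4.6, pandas 2.3.3, Python 3.11.15), and the threshold was 0.05. Levels and reads per genotype were implied from both columns with priors of 2 and 0.125 reads (assumed) and equal library sizes, so Col has slightly different levels in its tables. The intervals were computed with scipy 1.17.1 and cover counting error only. The adjustment was tested on simulated data.

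Sequences came from RefSeq's TAIR10.1, in which 99.96% of 35176 coding transcripts of the deposited annotation begin with ATG, and names and products came from the same reference for all 198 neighbours. Copies were sought with BLAST 2.17.0 (at least 95% identity over 50% of the exons), which marked 17 neighbours. The members, lists and tests were chosen with earlier results of these data known. Named genes are MYB30, the 5 nearest genes with reads on each side, up to 10 called rises and 10 called falls per line at 1 CPM or more with at least 1 read in the lower genotype, called genes with no read in 1 genotype and at least 10 in the other, the 5 highest per length and the called members of families. AT3G29630, AT3G28540 and AT3G29260 were named after their values were seen where no rule names them, as were the genes at the window's ends. The alternatives tried were other thresholds, adjustments, filters, a pseudocount of 1, centring and other windows. The upstream stretch of 1 gene is not reported here. The tables of transposable elements were not used, since the elements have no position in the deposited annotation.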

Additional observations from a re-analysis of the deposited data

Results flagged for a closer look

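Against Col, 2 neighbours were called in both lines with effects that also differed between the lines in the authors' deposited table of both lines. AT3G29970 rose by a log2 value of 1.66 in myb30 and fell by 1.94 in MYB30-OE, and MYB30-OE stood below myb30 by a log2 value of -3.60 (adjusted p = 5.21e-12). AT3G28290, an AT14A copy, was below Col in both lines, at -0.49 in myb30 and -0.94 in MYB30-OE, and the lines differed by -0.45 (adjusted p = 0.0295). Reads of AT3G28290 cannot be told from those of its copy AT3G28300. The tables used hold no values per library, so it cannot be seen whether 1 library decides either difference.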

How the results depend on the processing

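The counts of called neighbours (20 in myb30, 13 in MYB30-OE and 38 between the lines) fell to 12, 8 and 21 at an adjusted p of 0.01, to 5, 1 and 12 with a 2-fold change added, to 3, 3 and 6 with the Bonferroni adjustment, and to 1, 1 and 2 where the 2-fold change was taken with a pseudocount of 1 CPM. Each of these settings is stricter by construction. At an adjusted p of 0.01, 8.05%, 5.56% and 14.5% of neighbours were called, beside 13.8%, 7.33% and 23.1% of all genes. With Bonferroni the shares were 2.01%, 2.08% and 4.14%, beside 5.08%, 2.94% and 9.95%. With a 2-fold change they were 3.36%, 0.694% and 8.28%, beside 5.17%, 2.61% and 8.41%. With the pseudocount they were 0.671%, 0.694% and 1.38%, beside 1.86%, 0.856% and 3.81%. The counts stayed within 1.5 times of the first counts when genes under 1 CPM were left out (17, 14 and 31), when all rows were adjusted together (18, 11 and 35), in a window of equal length on both sides (16, 12 and 33), with the 4 genes other than MYB30 put back (22, 16 and 42) and, an alternative chosen after seeing the data, without near-identical copies (19, 11 and 36). With genes under 1 CPM left out, 20.2%, 16.3% and 37.3% of neighbours were called, beside 28.0%, 15.1% and 40.7% of all genes. With all rows adjusted together the shares were 9.09%, 5.56% and 17.7%, beside 15.0%, 7.86% and 22.4%. Over the 5 alternatives run for them, the medians of the neighbours moved by less than 0.1 on the log2 scale. Of 33 calls of single genes against Col, 13 were lost at an adjusted p of 0.01, 27 with Bonferroni, 27 with a 2-fold change and 4 with all rows adjusted together (AT3G28550 and RIK in myb30, AT3G29410 and AT3G29375 in MYB30-OE). The median in MYB30-OE went from 0.01 to -0.00310 in the equal window and to -0.01 with the left-out genes put back, where that between the lines went from 0.02 to -0.04. Among the settings run for single genes, only centring altered the log2 fold changes, by too little to change the sign of a called value. No paired analysis was possible because the authors' deposited tables carry no values per library, and leaving out each replicate in turn could not be run for the same reason. At an unadjusted p under 0.05 there were 37, 29 and 47 neighbours (24.8%, 20.1% and 32.4%), beside 31.6%, 21.8% and 39.3% of all genes. Of the 198 neighbours, 24.7% had no read in Col or myb30, and changes in them were not detectable at this depth.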
